A study of Mus musculus with 6 samples.

Results

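The genes described here are 10 genes of piRNA biogenesis and transposon defence in the germ line (Asz1, Mov10l1, Mael, Gpat2, Pld6, Henmt1, Pnldc1, Exd1, Ddx4 and Tex19.1). They were chosen by gene symbol in the GENCODE M21 annotation, and all 10 were found among the 55487 genes of the count table. The study sequenced polyadenylated RNA of whole mouse testes at postnatal day 19, when the first wave of germ cells is passing through meiotic prophase. It compares 3 libraries labelled control with 3 labelled dsfb, a genotype that the title of the series spells Hormad1&2SFB/SFB, so both HORMAD genes carry an SFB allele. The labels name no further allele, agent or strain for either group, do not spell out SFB and do not give the genotype of the controls. Testes came from different mice.

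PIWI-interacting RNAs (piRNAs) are small RNAs of the germ line that guide PIWI proteins to transposon transcripts and, in meiotic cells, to other transcripts. Long single-stranded precursors are unwound and cut at the surface of mitochondria, loaded into a PIWI protein, trimmed at the tail and methylated there. The proteins of these steps gather in germ granules, the intermitochondrial cement and later the chromatoid body. In mice, loss of most of them leaves males sterile, with arrest in meiosis or in early spermatids. A first set of piRNAs acts in the fetal and newborn testis, and a much larger set appears in pachytene spermatocytes, where the transcription factors A-MYB (Mybl1) and TCFL5 drive precursors and several pathway genes.

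Sequence upstream of the genes was read from the RefSeq table of promoters (GRCm38.p6), which held 10 windows for 9 of the 10 genes, with none for Pnldc1. In the 250 bases before each start, the E-box CACGTG, the palindrome that many basic helix-loop-helix factors can bind, stood in 4 of the 10 windows, those of Pld6, Ddx4, Mael and Mov10l1. It was in 6.0% of all 32841 such windows, counted on both strands. The core of the MYB motif, AACNG on either strand, was in 8 of the 10 windows and in 74.2% of all windows, and its longer form AACNGTT was in none of the 10 and in 3.8% of all. The windows of the 10 were richer in CpG than most: the median ratio of observed to expected CpG was 0.75 against 0.37 over all windows, and the median GC content was 64.0% against 52.4%. CACGTG itself holds a CpG, and its share over all windows was not matched for CpG content. A match is a string of letters in this window, and binding was not measured. The stretches below are shown because they set 3 genes that fell beside 1 that did not pass the test and 1 that rose. Asz1, Exd1 and Henmt1, which also fell, had no E-box in their windows and are not shown. The same holds for Gpat2, which did not pass the test. The Asz1 window held no AACNG either. Any link between the motifs and the direction of change was not tested. Capitals mark the E-box, the sequence runs 5′ to 3′ along the gene's strand, and bases inside annotated exons are left out except around the Ddx4 site.
Pld6: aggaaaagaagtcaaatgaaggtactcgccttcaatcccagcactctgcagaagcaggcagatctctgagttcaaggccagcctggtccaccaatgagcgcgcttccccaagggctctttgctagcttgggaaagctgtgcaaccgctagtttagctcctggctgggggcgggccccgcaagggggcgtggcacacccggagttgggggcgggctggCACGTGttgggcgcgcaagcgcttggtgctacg
Mael: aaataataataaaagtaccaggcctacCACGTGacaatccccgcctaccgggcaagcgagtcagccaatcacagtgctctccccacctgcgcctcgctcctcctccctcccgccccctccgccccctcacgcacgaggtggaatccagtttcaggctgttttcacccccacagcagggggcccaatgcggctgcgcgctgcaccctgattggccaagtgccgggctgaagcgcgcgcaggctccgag
Ddx4: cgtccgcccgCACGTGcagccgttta
Mov10l1: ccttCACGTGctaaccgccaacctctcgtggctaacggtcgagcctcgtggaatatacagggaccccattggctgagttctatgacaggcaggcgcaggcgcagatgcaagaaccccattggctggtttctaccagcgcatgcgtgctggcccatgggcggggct
Tex19.1: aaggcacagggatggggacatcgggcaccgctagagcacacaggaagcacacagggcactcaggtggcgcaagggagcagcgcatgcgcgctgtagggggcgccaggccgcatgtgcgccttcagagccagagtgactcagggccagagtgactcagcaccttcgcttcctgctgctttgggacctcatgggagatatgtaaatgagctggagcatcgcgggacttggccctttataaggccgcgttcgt
The Pld6 stretch is chr11:59787658-59787907 on the minus strand, with the E-box starting 33 bases before the RefSeq start. The Mael stretch is chr1:166238748-166238994 on the minus strand, with the E-box 223 bases before the start. For Ddx4 the site itself is shown with 10 bases on each side (chr13:112652324-112652349, minus strand, 29 bases before the RefSeq start), since the first exon of another GENCODE transcript covers it. The Mov10l1 stretch is chr15:88982744-88982908 on the plus strand, with the E-box 246 bases before the start. The Tex19.1 stretch, chr11:121145893-121146142 on the plus strand, ends at the base before the annotated start and holds no E-box and no AACNG.

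The control libraries held 23983373 to 27707291 counted reads and the dsfb libraries 15335130 to 17306363. Control replicate 3 stood apart from the other controls: its summed level of 10 spermatid markers was 934 CPM (read counts scaled to library size) against 163 and 182 CPM in replicates 1 and 2. Its summed leptotene-zygotene markers were at 1407 CPM against 2311 and 2430. Hormad2, at 60.0, 55.0 and 42.9 CPM in control and 25.1, 28.7 and 27.3 CPM in dsfb, fell (log2 fold change -0.96, SE 0.14, edgeR adjusted p = 0.000757). Hormad1, at 446, 486 and 209 CPM and at 217, 246 and 243 CPM, missed the threshold (-0.69, SE 0.28, edgeR adjusted p = 0.0597), with control replicate 3 below all dsfb libraries. Without that library Hormad1 was at -1.02 and passed (edgeR adjusted p = 1.57e-10). With all libraries kept, DESeq2 also called Hormad1 lower (log2 -0.78, DESeq2 adjusted p = 0.00496), as did edgeR with RLE scaling (log2 -0.78, edgeR adjusted p = 0.0382). It also passed in edgeR with no filter beyond 1 read (edgeR adjusted p = 0.0247) and with a replicate block (edgeR adjusted p = 0.0493). It did not pass with a filter at 1 CPM (edgeR adjusted p = 0.0674) or in limma-voom (limma-voom adjusted p = 0.109). Other scalings of the libraries put it between -0.31 (library size only, edgeR adjusted p = 0.361) and -1.69 (centred on Sertoli markers, edgeR adjusted p = 0.00118). Markers of Sertoli, Leydig, myoid, macrophage and germ cells were found in both groups. Several pachytene and spermatid markers, however, had only a few reads in dsfb.

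Of the 10 genes 6 fell in dsfb, to different depths, and 1 rose. Pld6, Henmt1, Mael and Ddx4 fell 4.76-fold to 6.95-fold, Exd1 fell 2.68-fold and Asz1 2.05-fold. Gpat2, Mov10l1 and Pnldc1 were within 1.2-fold of the control level and did not pass the test, and Tex19.1 rose 2.32-fold. All 10 passed the filter on low counts. By edgeR's quasi-likelihood test with adjusted p under 0.05 over 19826 genes, 6 of the 10 were lower and 1 was higher. Among all tested genes 36.2% were called lower and 30.7% higher, so that a call in itself is common in these data (66.9%). The groups did not overlap for 8 of the 10, with dsfb below in 7 and above in 1, as for 74.7% of all tested genes. The median log2 fold change of the 10 genes was -1.23, against 0.02 over all tested genes. The split of all calls, 6080 higher and 7176 lower, moved with the scaling of the libraries. It was 8187 and 6126 with upper-quartile scaling, 8936 and 5732 with library size only, and 324 and 12423 when libraries were centred on 10 autosomal Sertoli markers, which lowers every log2 fold change by 1.0. The 6 genes that fell were called lower under each of these scalings. In these bulk samples, fewer cells of a type and less RNA per cell cannot be told apart. Levels below are CPM on TMM-scaled library sizes unless stated otherwise.

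**Figure D1:**
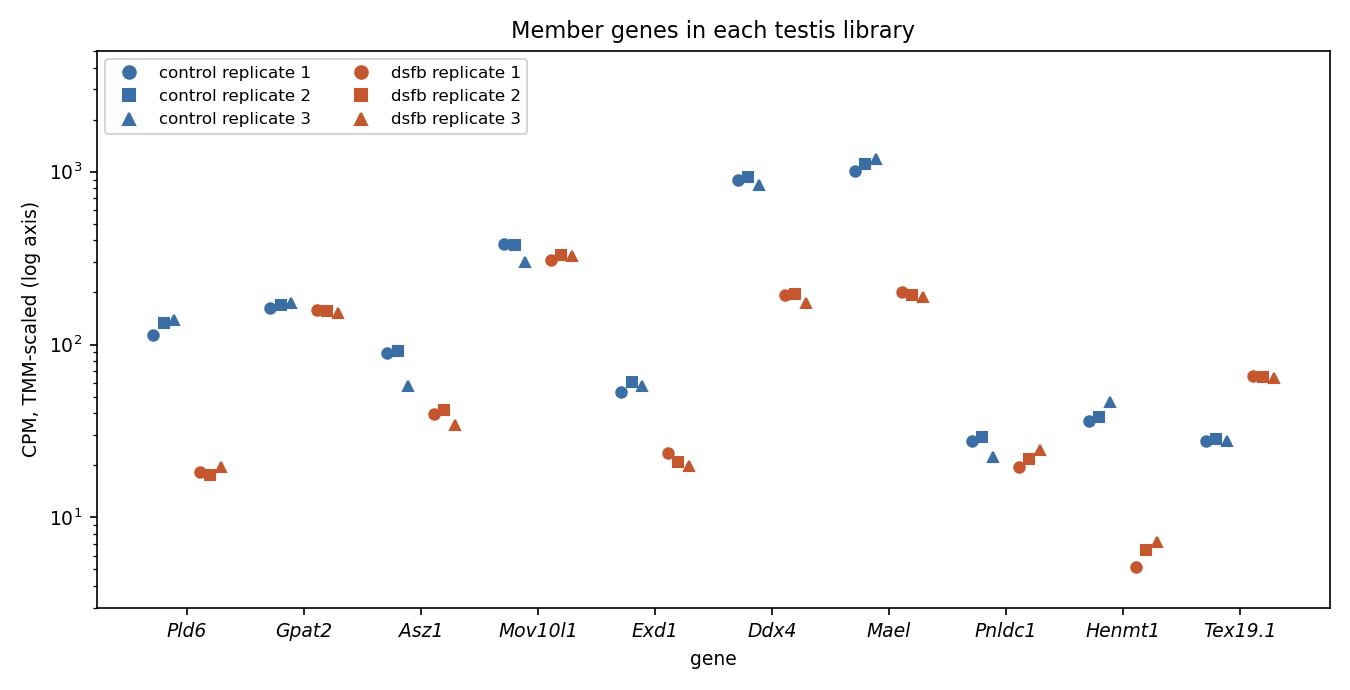
CPM of the 10 genes (log axis) in each of the 3 control libraries (blue) and 3 dsfb libraries (orange), with 1 point per library and a symbol for each replicate. The groups are far apart for Pld6, Ddx4, Mael, Henmt1 and Exd1 (dsfb below) and for Tex19.1 (dsfb above), nearly meet for Gpat2, and overlap for Mov10l1 and Pnldc1.

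At the mitochondrial surface, where piRNA precursors are cut, Pld6 and Asz1 fell, and Gpat2 did not pass the test. Pld6 (ENSMUSG00000043648, chromosome 11, 59783897 to 59787645, minus strand, 2 exons) encodes the phospholipase D family protein of the outer mitochondrial membrane that makes the leading ends of piRNAs. Its levels, given here and below in the order of replicates 1, 2 and 3, were 114, 133 and 138 CPM in control and 18.3, 17.6 and 19.5 CPM in dsfb. Every dsfb library lay far below every control, and the fold change was -2.80 on the log2 scale (SE 0.11, edgeR adjusted p = 7.55e-07). This was the lowest estimate of the 10, with a 95% interval (-3.05 to -2.54) that overlapped those of Henmt1 and Mael. Of all tested genes 14.3% had a lower log2 fold change.

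Gpat2 (ENSMUSG00000046338, chromosome 2, 127425199 to 127436092, plus strand, 22 exons) encodes a mitochondrial member of the glycerol-phosphate acyltransferase family that is needed for primary piRNAs. It was at 162, 170 and 173 CPM in control and 159, 157 and 153 CPM in dsfb. The highest dsfb library was just under the lowest control, as in 38.5% of all tested genes where dsfb lay wholly below. The change did not pass the test (log2 -0.11, 95% interval -0.28 to 0.06, edgeR adjusted p = 0.223). Its sign depended on the scaling of the libraries, since it was 0.17 with upper-quartile scaling and 0.29 with library size as the only scaling, the latter past the threshold (edgeR adjusted p = 0.00945). Centred on Sertoli markers it was -1.11 (edgeR adjusted p = 5.47e-06).

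Asz1 (ENSMUSG00000010796, chromosome 6, 18050964 to 18109061, minus strand) encodes GASZ, an ankyrin-repeat protein that anchors the intermitochondrial cement. Its levels were 89.2, 91.9 and 57.2 CPM in control and 39.7, 41.9 and 34.4 CPM in dsfb. Control replicate 3 was the lowest control, though still above every dsfb library. Asz1 fell by 1.04 on the log2 scale (SE 0.19, edgeR adjusted p = 0.00191), and by between 0.93 and 1.26 when single libraries were left out.

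Among the RNA helicases and precursor-binding proteins, Ddx4 and Mael fell steeply and Mov10l1 did not pass the test. Ddx4 (ENSMUSG00000021758, chromosome 13, 112598333 to 112652475, minus strand, 22 exons) encodes the DEAD-box helicase VASA, a marker of germ cells from fetal life to the round spermatid. It was at 894, 932 and 840 CPM in control and at 193, 195 and 173 CPM in dsfb, a fall of 2.25 on the log2 scale (SE 0.10, edgeR adjusted p = 1.27e-06). Both groups were tight, and the gap between them was many times the spread within either.

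Mael (ENSMUSG00000040629, chromosome 1, 166201201 to 166238747, minus strand) encodes Maelstrom, an HMG-domain protein of germ granules that binds piRNA precursors. It had the most reads of the 10 in every control library, at 1014, 1102 and 1179 CPM, and was at 200, 194 and 189 CPM in dsfb, below Mov10l1. The fold change was -2.50 on the log2 scale (SE 0.10, edgeR adjusted p = 8.17e-07), next to that of Ddx4.

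Mov10l1 (ENSMUSG00000015365, chromosome 15, 88982909 to 89055152, plus strand, 27 exons) encodes the helicase that feeds precursors into processing. Its levels were 380, 378 and 299 CPM in control and 309, 331 and 325 CPM in dsfb, so control replicate 3 lay below all dsfb libraries and the groups overlapped. The change was -0.13 on the log2 scale (95% interval -0.39 to 0.13, edgeR adjusted p = 0.328). Without control replicate 3 it was -0.27 and passed the test (edgeR adjusted p = 0.00368), while upper-quartile and library-size scaling gave 0.15 and 0.26. Centred on Sertoli markers it was -1.13 (edgeR adjusted p = 5.78e-05).

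Exd1 (ENSMUSG00000048647, chromosome 2, 119516505 to 119547627, minus strand) encodes an RNA-binding partner of TDRD12 in the secondary, amplifying branch of the pathway. It was at 53.2, 61.1 and 57.8 CPM in control and at 23.6, 20.8 and 19.8 CPM in dsfb, with no overlap. Exd1 fell by 1.42 on the log2 scale (SE 0.11, edgeR adjusted p = 3.13e-05). Of its transcript words of 50 bases 1.37% also occur in other annotated genes, against 3.58% for Pnldc1 and 12.4% for Henmt1.

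Of the 2 enzymes that finish the tail of the piRNA, the gene of the methyltransferase fell and that of the trimmer did not pass the test. Pnldc1 (ENSMUSG00000073460, chromosome 17, 12888729 to 12910230, minus strand) encodes the exonuclease that trims loaded piRNAs to length. It was at 27.7, 29.2 and 22.3 CPM in control and at 19.7, 21.9 and 24.4 CPM in dsfb, overlapping through control replicate 3. The change was -0.26 on the log2 scale (95% interval -0.62 to 0.09, edgeR adjusted p = 0.162). Without control replicate 3 it was -0.40 and passed (edgeR adjusted p = 0.00445), and with upper-quartile and library-size scaling it was 0.01 and 0.13. Centred on Sertoli markers it was -1.26 (edgeR adjusted p = 0.000188).

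Henmt1 (ENSMUSG00000045662, chromosome 3, 108939873 to 108960774, plus strand) encodes the methyltransferase that protects the trimmed tail. It was at 36.3, 38.0 and 46.4 CPM in control and at 5.18, 6.48 and 7.18 CPM in dsfb, the lowest dsfb levels among the 10. Henmt1 fell by 2.68 on the log2 scale (SE 0.18, edgeR adjusted p = 1.19e-05). Gm9857, annotated on the opposite strand, covers 14.7% of its exonic bases, and 144 bases of Pnldc1 exons lie opposite AL589878.1. No source used here says whether reads were counted by strand. Gm9857 held 0 reads in 5 libraries and 4 in dsfb replicate 2, and AL589878.1 held 8 to 21 reads per library.

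Tex19.1 was the single gene of the 10 that was higher in dsfb. Tex19.1 (ENSMUSG00000039329, chromosome 11, 121146143 to 121148319, plus strand, 2 exons) encodes a mammal-specific germ cell protein that binds the ubiquitin ligase UBR2 and restrains LINE-1 retrotransposons. It was at 27.8, 28.4 and 27.8 CPM in control and at 65.5, 65.2 and 64.4 CPM in dsfb, with hardly any spread in either group. The rise was 1.22 on the log2 scale (SE 0.09, edgeR adjusted p = 1.51e-05), above that of 93.2% of tested genes. Without any 1 library it stayed between 1.17 and 1.24. When libraries were centred on autosomal Sertoli markers instead, it was 0.21 and lost the threshold (edgeR adjusted p = 0.0717). Its paralog Tex19.2 shares 2.67% of the 50-base words of Tex19.1 (50 of 1870 words).

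**Figure D2:**
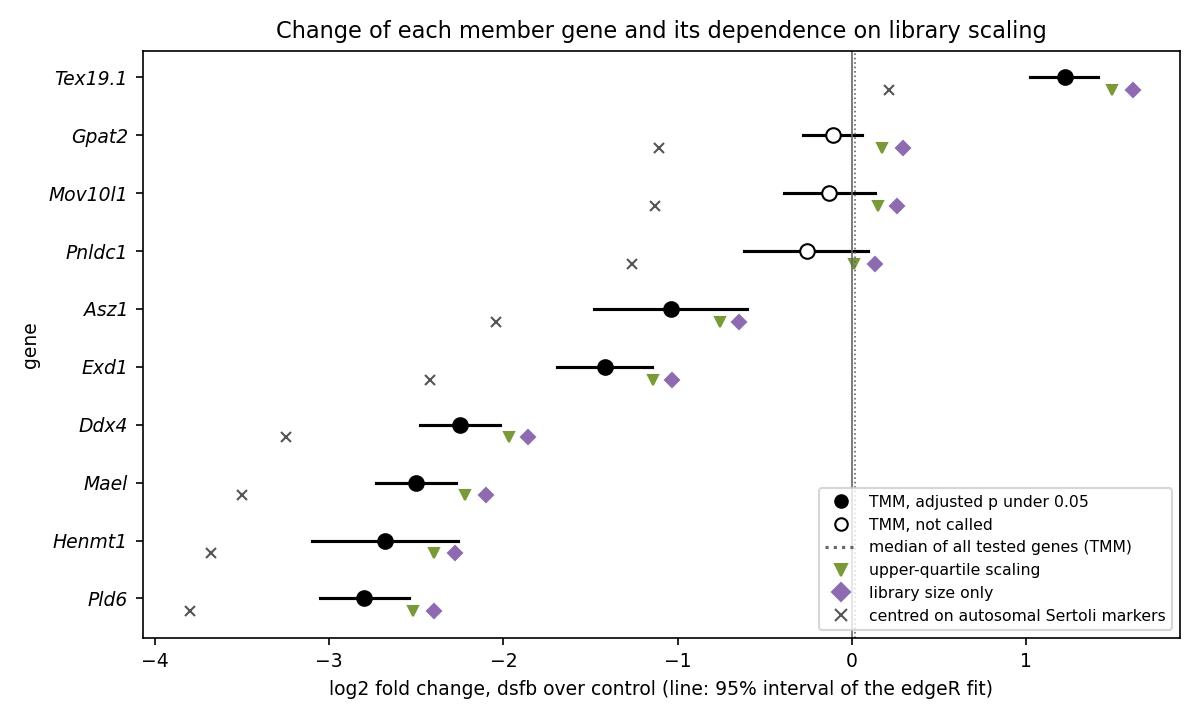
Log2 fold change of each gene, dsfb over control, with TMM scaling (circles, filled where the adjusted p was under 0.05) and its 95% interval (lines), and with 3 other scalings (small symbols). The genes span from -2.80 for Pld6 to 1.22 for Tex19.1. A change of scaling shifts all 10 together, and only Gpat2, Mov10l1 and Pnldc1 change sign.

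Per kilobase of exon, the order of the 10 genes differed between the groups. In control, Mael was highest at 634 ± 47.5 CPM per kb (SD, n = 3), followed by Ddx4 at 295 ± 15.3. Mov10l1, Pld6 and Gpat2 came next at 84.2, 73.1 and 64.1 CPM per kb, and Mov10l1 overlapped Pld6 and Pld6 overlapped Gpat2. Asz1 was at 28.1 CPM per kb, Tex19.1 and Henmt1 both at 15 with overlapping ranges, and Pnldc1 and Exd1 at 9.92 and 9.49, also overlapping. In dsfb, Mael still led at 112 ± 3.11 CPM per kb, but Mov10l1 came next at 76.9 ± 2.72 and then Ddx4 at 62.0 ± 4.0, its range meeting that of Gpat2 (59.4 CPM per kb). Tex19.1 followed at 34.7 CPM per kb, ahead of Asz1 (13.7), Pld6 (10.5), Pnldc1 (8.26), Exd1 (3.54) and Henmt1 (2.35), and none of these neighbours overlapped. Mael supplied 49.6% to 54.6% of the summed per-kb level of the 10 genes in control libraries and 28.8% to 30.0% in dsfb libraries. The share of Gpat2 was larger in dsfb, at 15.3% to 15.6% against 5.14% to 5.28% in control. The share of Tex19.1 was 1.2% to 1.26% in control and 8.95% to 9.18% in dsfb.

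Ratios between 2 genes within a library do not depend on how libraries are scaled. Relative to Ddx4, all genes but Pld6, Mael and Henmt1 were higher in dsfb libraries than in controls. The log2 ratio of Tex19.1 to Ddx4 (reads per kb) was -4.32, -4.35 and -4.23 in control and -0.87, -0.89 and -0.74 in dsfb, a difference of 3.47. The ratio of Gpat2 went from a mean of -2.20 to -0.06 and that of Mov10l1 from -1.82 to 0.31, differences of 2.14 and 2.13. Reads per kb of Mov10l1 were thus below those of Ddx4 in all controls and above them in all dsfb libraries. Exon length here is merged over all annotated transcripts, so this order need not hold for transcript numbers. Pnldc1, Asz1 and Exd1 gained 1.99, 1.24 and 0.83 against Ddx4. Pld6 and Mael lost 0.54 and 0.24 with no overlap between groups, and Henmt1 lost 0.43 with overlap. Over 9 such comparisons, 8 had p = 0.1 in an exact permutation test, two-sided (adjusted p = 0.112), the smallest that 3 against 3 allows, and Henmt1 had p = 0.3.

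**Figure D3:**
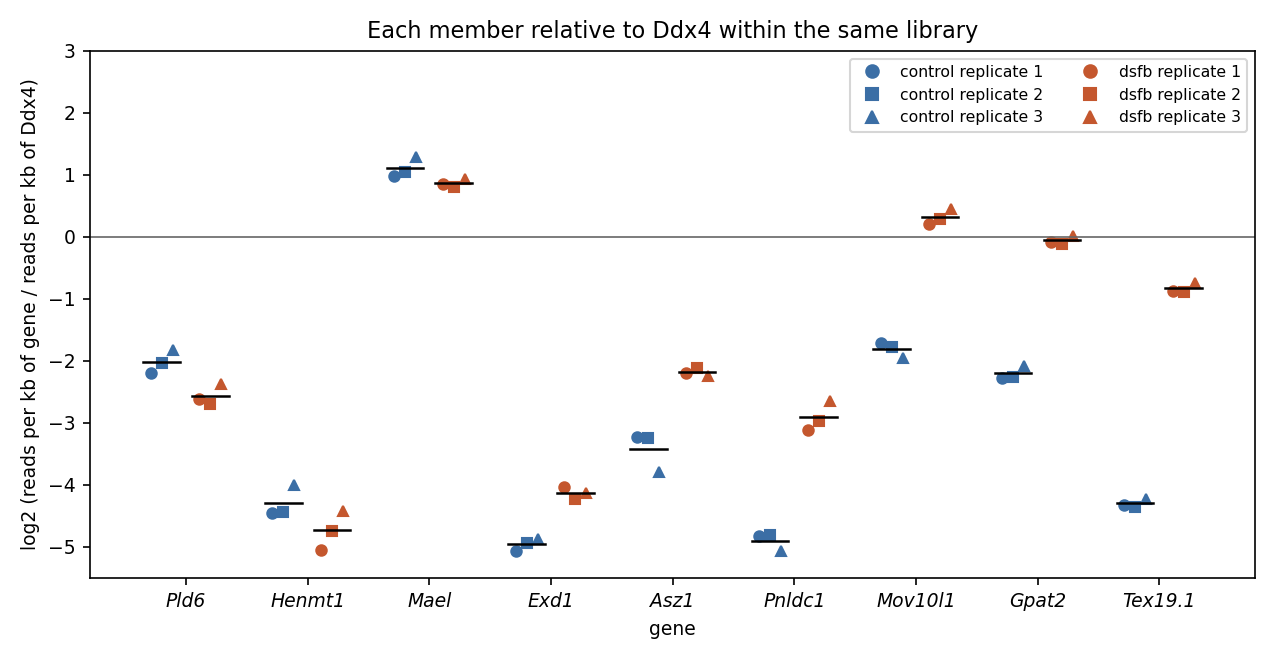
Log2 ratio of reads per kb of each gene to reads per kb of Ddx4 in the same library (blue, control; orange, dsfb; black bars, group means; a line marks equal levels). Pld6, Henmt1 and Mael are lower on average in dsfb, by 0.24 to 0.54, whereas the other 6 genes lie higher in every dsfb library than in any control, by 0.83 for Exd1 and 3.47 for Tex19.1 on average.

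Most relatives of the 10 genes, several of them expressed in many tissues, were higher in dsfb. Of 9 relatives and partners 7 rose and 2 fell (median log2 fold change 0.91). Mov10, the helicase that Mov10l1 is named after, rose by 1.0 (SE 0.10, edgeR adjusted p = 8.15e-05), Gpam, the broadly expressed mitochondrial acyltransferase gene related to Gpat2, by 0.91 (SE 0.11), and Ubr2, the ligase partner of TEX19.1, by 0.96 (SE 0.11). D1Pas1, a testis-specific helicase of the DDX3 family that is, like Ddx4, a DEAD-box gene, fell by 1.97 (SE 0.12). The remaining relatives are named for their pairing with a gene of the 10, after their values were seen: the deadenylase gene Parn rose (log2 0.72), as did Ddx3x (1.30), Ddx3y (1.06) and Tex19.2 (0.63), and Exd2 fell (-0.88). Within libraries, the log2 ratio of Mov10l1 to Mov10 went from 2.84 ± 0.11 (SD, n = 3) to 1.71 ± 0.10, that of Gpat2 to Gpam from 2.50 ± 0.22 to 1.47 ± 0.07 and that of Pnldc1 to Parn from 0.82 ± 0.10 to -0.16 ± 0.18. The ratio of Tex19.1 to Tex19.2 rose from -0.86 ± 0.11 to -0.28 ± 0.13, and that of Ddx4 to Ddx3x went from 3.48 ± 0.31 to -0.10 ± 0.04. In the same exact permutation test 6 of 7 pairs had p = 0.1 (adjusted p = 0.117). The pair of Ddx4 and D1Pas1 had p = 0.2 in that exact test, with a difference of -0.29 and overlapping groups. Centred on Sertoli markers, none of the 7 relatives that rose was called higher and Tex19.2 was called lower (log2 -0.37, edgeR adjusted p = 0.0163).

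The other genes of the pathway spanned log2 fold changes from -9.54 to 1.16, against -2.80 to 1.22 for the 10. Of 33 genes in 5 lists, 21 were called lower and 6 higher (36.2% and 30.7% of all tested genes), with a median log2 fold change of -1.15. Among the PIWI proteins that carry the piRNAs, Piwil1, the pachytene one, was at 995, 1084 and 1250 CPM in control and 17.4, 18.9 and 22.0 CPM in dsfb (log2 -5.83, SE 0.16, edgeR adjusted p = 1.95e-07). Piwil2, present from spermatogonia on, was at 577, 597 and 566 CPM in control and 322, 312 and 315 CPM in dsfb (log2 -0.88, SE 0.08). Piwil4, the nuclear PIWI protein of fetal and early germ cells, rose from a low level of 2.53 ± 0.425 to 5.63 ± 1.31 CPM (log2 1.15, SE 0.26), and overlaps Gm10706 on the opposite strand. The change of Piwil4 was 0.15 with libraries centred on Sertoli markers and lost its call (edgeR adjusted p = 0.636). The 95% interval of Piwil1, -6.20 to -5.47, lay below those of all 10 genes, and that of Piwil2, -1.06 to -0.69, overlapped that of Asz1.

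All 9 Tudor-domain genes, whose products dock on methylated PIWI proteins, were called lower (median log2 fold change -1.86). Tdrd6, a scaffold of the chromatoid body, fell deepest (log2 -7.84, SE 0.28), from 822, 970 and 1339 CPM to 3.81, 4.02 and 5.83 CPM. Tdrd5 fell by 2.76, Tdrd1 by 2.25 and Tdrd12, the partner of EXD1, by 1.86 on the log2 scale, depths within the range of Exd1 to Pld6. Tdrkh, named after its values were seen because it binds PIWI proteins for trimming by PNLDC1, changed least (log2 -0.39, edgeR adjusted p = 0.0313). Its call was lost without any 1 library other than control replicate 3 (edgeR adjusted p = 0.0648 to 0.127) and with upper-quartile or library-size scaling, so 8 of 9 Tudor genes were called without it. It shares exonic bases with Oaz3, a spermatid gene on the opposite strand.

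Of 7 piRNA cofactors 5 fell and 1 rose (median -2.98). Ddx25, a helicase of the chromatoid body, fell by 3.77 (SE 0.13), Gtsf1, a zinc-finger partner of PIWI proteins, by 2.98 (SE 0.21) and Adad2 by 1.53 (SE 0.12) on the log2 scale. Gtsf2 had 417, 535 and 1141 reads in control and 0, 2 and 0 in dsfb, 865 times fewer after scaling (95% interval 239 to 7150 from counting error alone). The ratio rests on few reads. It was 579 without control replicate 3, 559 and 577 without dsfb replicates 1 and 3, and at least 396 without dsfb replicate 2, taking a floor of 3 reads over the group. Fkbp6, a co-chaperone for PIWI loading, rose by 0.56 (SE 0.09, edgeR adjusted p = 0.000876), but with libraries centred on Sertoli markers it fell (-0.44, edgeR adjusted p = 0.0021). Among 4 transcription regulators 3 fell and 1 rose. Mybl1 went from 220, 233 and 146 CPM to 96.0, 94.3 and 80.7 CPM (log2 -1.15, SE 0.18), and Tcfl5 from 361, 398 and 438 CPM to 69.8, 71.7 and 64.7 CPM (log2 -2.54, SE 0.10). Crem, a factor of postmeiotic genes, fell by 3.30 (SE 0.14), and Btbd18, which promotes elongation at pachytene piRNA loci, rose by 0.77 (SE 0.20, edgeR adjusted p = 0.00948). With the same centring Btbd18 was at -0.23 and lost its call (edgeR adjusted p = 0.35). Tcfl5 and Crem share exonic bases with genes on the opposite strand.

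The nuclear arm of transposon silencing held genes that rose and genes that fell. Of 10 genes that methylate DNA or histones or help to do so at transposons, 3 rose, 2 fell and 5 did not pass (median log2 fold change 0.05). The DNA methyltransferase gene Dnmt3a rose by 1.16 (SE 0.13) and Dnmt3c, the rodent enzyme that methylates young transposon promoters in male germ cells, by 0.96 (SE 0.20), from 5.90 to 11.5 CPM. Tex15, a nuclear partner of the fetal PIWI protein, named as the remaining call after its values were seen, rose by 0.61 (SE 0.18, edgeR adjusted p = 0.0166) and lost its call without dsfb replicate 1 or 2 (edgeR adjusted p = 0.0545 and 0.0646). Trim28, a corepressor, fell by 0.82 (SE 0.11) and Uhrf1, a maintenance methylation factor, by 0.93 (SE 0.10) on the log2 scale. Dnmt3a overlaps an annotated antisense transcript. With library size as the only scaling 6 of this list rose, and centred on Sertoli markers 6 fell and none rose.

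Transposon transcripts were not analysed here. Interferon-stimulated genes, which cells can raise when they sense foreign or transposon RNA, were at low levels in both groups. Of 10 such genes 5 rose and 5 did not pass (median log2 fold change 0.80), and their summed level was 49.4 to 52.9 CPM in control and 101 to 115 CPM in dsfb. Oasl2 rose by 1.29 (SE 0.16), Irf7 by 1.34 (SE 0.22) and Ifih1, an RNA sensor, by 1.26 (SE 0.18). Ddx58, the RNA sensor RIG-I, named after its values were seen, rose by 0.75 (SE 0.16). Isg15 and Mx1, also named after their values were seen, were at or under 1.67 CPM in all libraries. Centred on Sertoli markers, none of the 10 was called (median -0.20).

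Markers of cell types moved between the groups beside these genes. The 10 markers of spermatocytes in mid or late pachytene were all called lower (median -8.11 on the log2 scale), and their summed level was 7808, 8796 and 10331 CPM in control and 356, 385 and 408 CPM in dsfb. All 9 tested spermatid markers of 10 also fell by edgeR (median -6.99), to a summed 12.4 to 14.7 CPM. Without control replicate 3 the 7 still tested were called lower with a median of -4.43, and leaving out single dsfb libraries left 5 to 7 of 9 called. DESeq2 gave an adjusted p for 3 of the 9 and called these 3 lower, and limma-voom called 2 of 9. Of 10 leptotene-zygotene markers 4 rose and 2 fell (median -0.02), with summed levels of 1407 to 2430 CPM in control and 1369 to 1567 CPM in dsfb. Without control replicate 3, 5 rose and 5 fell, and without dsfb replicate 1, 2 rose and 2 fell. DESeq2 called 4 higher and 5 lower. Of 7 markers of differentiating spermatogonia 6 rose and 1 fell, and of 7 of undifferentiated spermatogonia 5 rose and 1 fell (medians 0.74 and 0.73). Those that fell, named after their values were seen, were Dmrtb1 (log2 -3.61) and Id4 (-1.52). The summed differentiating markers were lower in dsfb, at 657, 731 and 862 CPM in control and 422, 396 and 393 CPM in dsfb. Most of the control sums came from Dmrtb1 alone, at 431, 521 and 709 CPM in control and 41.5, 40.4 and 53.9 CPM in dsfb. The sum thus follows Dmrtb1 and not the 6 markers that rose. The undifferentiated sums overlapped, at 182, 180 and 152 CPM in control and 183, 157 and 211 CPM in dsfb. They include Id4, at 72.5, 81.8 and 65.4 CPM in control and 24.5, 23.2 and 28.7 CPM in dsfb, which offsets the 5 markers that rose. The count of undifferentiated markers that rose was 3 without control replicate 2, dsfb replicate 1 or dsfb replicate 3. Among somatic cells, 9 of 10 Sertoli markers rose (median 1.0), from a summed 2335 to 3084 CPM to 5400 to 5632 CPM. Leydig markers (3 of 7 higher, median 0.57), peritubular myoid markers (3 of 5, 0.86), macrophage markers (3 of 5, 0.81) and endothelial markers (1 of 4, 0.36) had none called lower. The Leydig count was 6 without control replicate 3 and 1 without dsfb replicate 1 or 3, and the macrophage count was 1 without control replicate 2 or dsfb replicate 3. With libraries centred on Sertoli markers, 1 of the 7 differentiating spermatogonia markers and none of the other marker lists' genes were called higher. The Sertoli list defines this centring, so its own count there is not a separate result. No tested marker had 0 reads in all dsfb libraries. The summed level of the 10 genes was 2799, 2964 and 2840 CPM in control and 1033, 1050 and 1010 CPM in dsfb. The falls of Pld6, Henmt1, Mael and Ddx4, at log2 -2.25 to -2.80, were shallower than the pachytene median. The rise of Tex19.1, at 1.22, lay within the range of the Sertoli markers (0.82 to 1.23). It also lay within those of leptotene-zygotene (-1.07 to 1.24), differentiating spermatogonia (-3.61 to 1.78) and Leydig markers (-0.07 to 1.73). That rise was above every tested marker of the other cell type lists (highest 1.12, a macrophage marker). The part of these cell types in the values of the 10 genes was not tested.

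**Figure D4:**
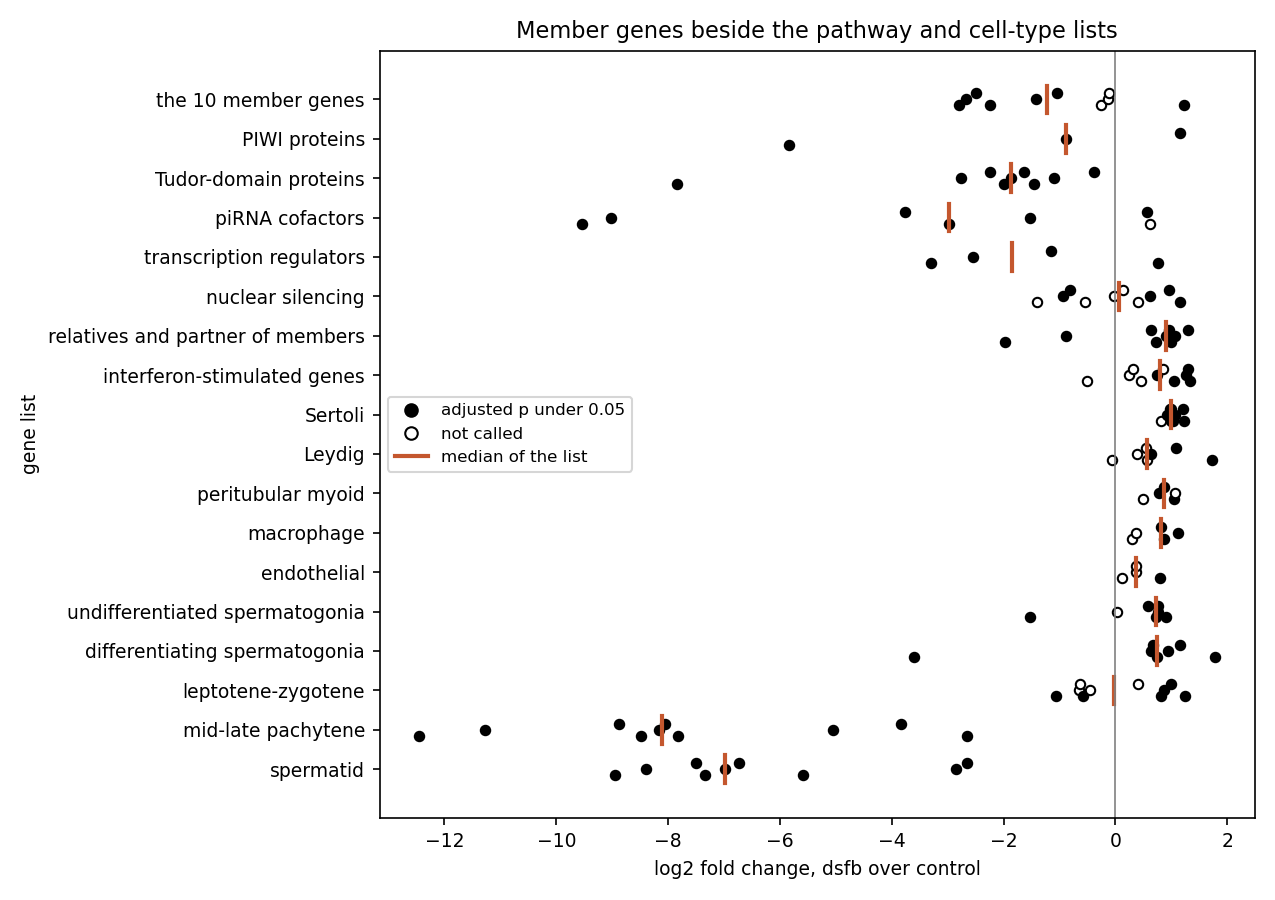
Log2 fold change, dsfb over control, of each tested gene in the 10-gene set, the pathway lists, relatives, interferon-stimulated genes and cell type markers (filled, adjusted p under 0.05; open, not called; orange bars, list medians). The median of the 10 genes, -1.23, lies between those of the mid to late pachytene markers (-8.11) and the Sertoli markers (1.0).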

How the data were processed

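Polyadenylated RNA of 6 testes (3 control, 3 dsfb; postnatal day 19) was sequenced. Reads were aligned with STAR 2.6.0, per the submitters' processing notes, and the authors deposited whole-number read counts per gene. The counting tool, its annotation and its strand setting: not given in the sources used here. Of 55487 gene IDs 55227 matched GENCODE M21 (GRCm38), which gave symbols, coordinates and exon lengths. Genes were filtered with filterByExpr (minimum count 10, minimum total 15), scaled by TMM and tested with edgeR 4.0.16 (quasi-likelihood, R 4.3.3). P-values were adjusted by Benjamini-Hochberg over 19826 genes, with a threshold of 0.05. The SE of a fold change was derived from its F statistic. Libraries held 15335130 to 27707291 reads, and CPM used TMM-scaled totals of 17429935 to 24215761. Whether cages or litters were shared is not given, so p-values measure the spread between these testes.

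Named genes were the 10, Hormad1, Hormad2, up to 4 genes with the smallest p per pathway, relative or interferon list and pathway genes called against their list. Exceptions are marked as named after their values were seen. The values of 1 interferon-stimulated gene are not reported here. The 10 genes and all lists were chosen with earlier results of these data known. Alternatives were RLE, upper-quartile, library-size and Sertoli-centred scaling, 2 filters, DESeq2 1.42.0, limma-voom 3.58.1, leaving out each library, and a replicate block. The fitting script was tested on simulated counts.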

Additional observations from a re-analysis of the deposited data

How the results depend on the processing

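Library scaling moved these results most. With upper-quartile scaling the median log2 fold change of the 10 genes was -0.95, and Gpat2, Mov10l1 and Pnldc1 changed sign to 0.17, 0.15 and 0.01. With library size only the median was -0.84, and those genes were at 0.29, 0.26 and 0.13. In that setting 2 of the 10 and 10 of the 33 pathway genes were called higher, beside 8936 of all 19826 tested genes. Called lower were 6 of the 10 and 20 of the 33, beside 5732 of all tested genes. Centred on Sertoli markers, 324 of all genes were called higher and 12423 lower, the median of the 10 was -2.23, and 0 of the 10 and 0 of the 33 pathway genes were called higher by edgeR. At an unadjusted p under 0.05 that setting gave 1 and 0 higher, and DESeq2 with its own scaling gave 1 and 6. These scalings put the median of all genes at 0.30, 0.41 and -0.98, against 0.02 with TMM. Pld6, Henmt1, Mael, Ddx4, Exd1 and Asz1 were called lower in all 15 alternatives, and Tex19.1 was called higher in 14 of 15. Leaving out each library in turn gave 4940 to 6596 genes called higher and 6889 to 7621 lower, 1 of the 10 higher and 6 to 8 lower, a median of the 10 between -1.35 and -1.15, and 5 to 6 pathway genes higher and 20 to 21 lower. The 8 came without control replicate 3. Correlations of deviations were small, at 0.06, 0.05 and 0.10 for equal replicate numbers and -0.09 to 0.03 for unequal ones. These values do not settle whether replicate numbers pair the samples. The fit with the replicate block called 6228 genes higher and 7203 lower, 1 of the 10 higher and 6 lower (median -1.22), and 7 pathway genes higher and 21 lower. At 15335130 to 27707291 reads, depth limits mainly genes with few reads, such as Gtsf2 with 2 reads in dsfb.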
